A study of Mus musculus with 6 samples.

Results

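Hepatic stellate cells of the non-tumour region in livers of mice on a high-fat diet were compared with those from normal diet livers, separately after isolation at 37 and at 6 degrees. The comparison used 4 of the 6 libraries of the series, and its genes of interest were those at least 2-fold higher or lower in the non-tumour region at both temperatures. Of 11556 genes tested, 194 (1.68%) were higher and 214 (1.85%) lower by this rule. On the higher side 41 were on a list of endothelial markers and a further 45 were at least 2-fold lower at 37 than at 6 degrees in all 3 liver sources, which left 108 higher and 214 lower genes to be described.

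All libraries came from wild type C57BL/6 mice aged 35 weeks and were made from cells of the CD31-/CD45.2-/CD49a+ fraction after liver perfusion. The groups were HSC_ND_37 and HSC_ND_6 from normal diet livers, HSC_NT_37 and HSC_NT_6 from tissue outside the tumours of high-fat diet livers, and HSC_T_37 and HSC_T_6 from the tumour region, which served here as libraries outside the comparison. Each group had 1 library. The labels do not say how many livers a library held, whether the 37 and 6 degree libraries came from separate animals, how the tumours arose or how the non-tumour region was delimited, and diet and liver region cannot be told apart in the comparison.

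Hepatic stellate cells are the pericytes of the liver sinusoid. They store vitamin A as retinyl esters, and after injury they divide, lose their lipid droplets and turn into myofibroblasts that lay down and remodel the fibrous matrix. They are also a source of complement proteins, chemokines and growth factors that act on hepatocytes, endothelial cells and leukocytes nearby.

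The libraries held an estimated 1.81e+07 to 2.55e+07 fragments, with 200 bases taken off each transcript's length for the estimate. On 1 kb of such corrected length a single fragment stood for 0.0393 to 0.0554 FPKM (fragments scaled to transcript length and library size). Stellate cell genes were high in every library: Lrat, which esterifies vitamin A, was at 494 and 335 FPKM in normal diet and 538 and 373 FPKM in the non-tumour region at 37 and 6 degrees (here and below, pairs of values are given in that order). Markers of the excluded cells were low at 37 degrees and higher at 6 degrees. Pecam1, which encodes CD31, was at 0.9 and 31.4 FPKM in normal diet against 9.99 and 90.6 FPKM in the other source, and Ptprc, which encodes CD45, at 0.397 and 1.75 against 0.375 and 2.73 FPKM. Itga1, which encodes CD49a and thus the antigen used to collect the cells, was itself higher in the non-tumour region, at 204 and 161 against 90.5 and 87.6 FPKM (log2 difference 1.01 ± 0.11, limma, adjusted p = 0.0109). Whether this altered which cells entered the sorted fraction was not tested.

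**Figure D1:**
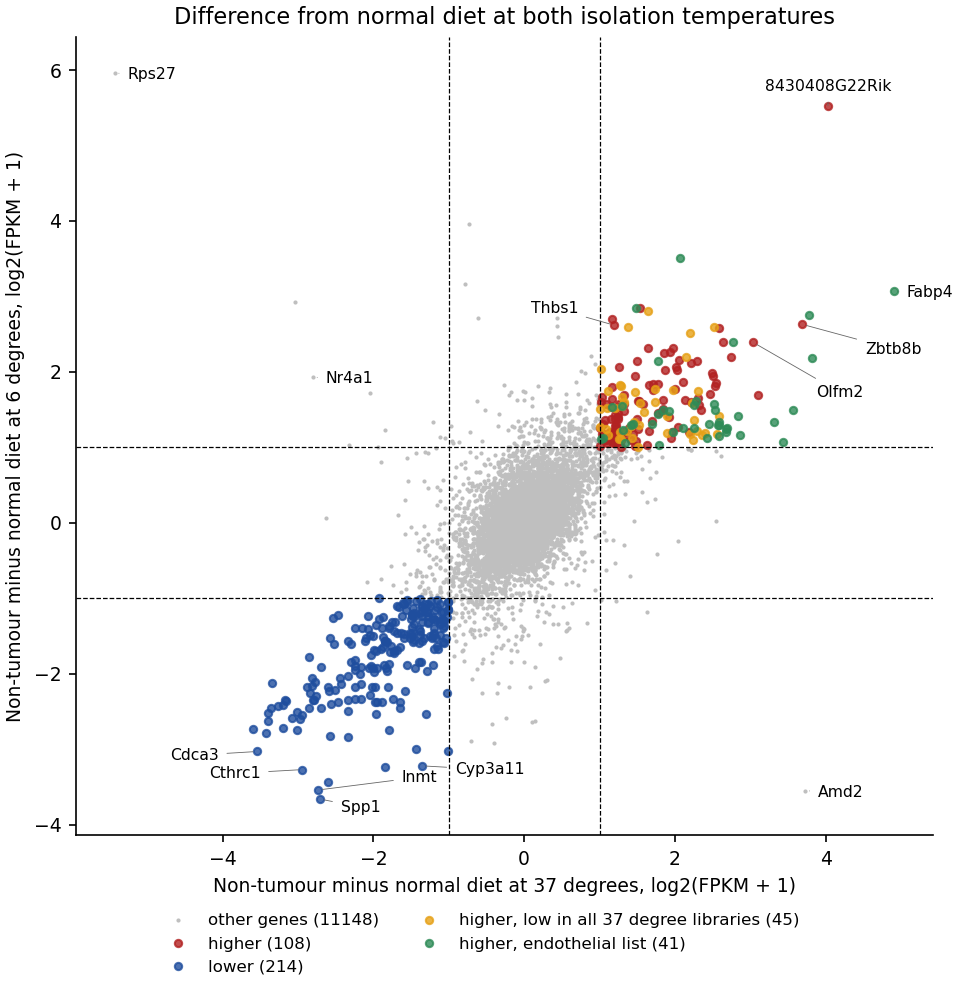
Difference between the non-tumour region and normal diet at 37 degrees (x axis) and at 6 degrees (y axis), on the log2(FPKM + 1) scale, for the 11556 genes tested. Dashed lines mark 2-fold; the 108 higher and 214 lower genes fill the upper right and lower left corners, while 14 genes lie beyond 2-fold in opposite directions, among them Rps27, Nr4a1 and Amd2.

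Differences are given on the log2(FPKM + 1) scale, which understates the change of genes with low values. A limma model of source and temperature over all 6 libraries gave the mean of both differences. It also gave a standard error (SE) and a p-value adjusted over the 11556 genes. Each SE combined the gene's own residuals over all 6 libraries (2 residual degrees of freedom) with a variance trend over all genes. Together these gave 5.37 degrees of freedom, so that much of each SE was borrowed from other genes. The model called 344 genes (2.98%) higher and 299 (2.59%) lower in the non-tumour region at an adjusted p under 0.05. The described genes were chosen on these same libraries, so that 97 of the 108 higher and 197 of the 214 lower ones passing limma is a description of them and no separate support. The same holds wherever the values of both sources are said below to lie apart or not to overlap. The model needs both non-tumour libraries: without HSC_NT_37 or without HSC_NT_6 it called 0 genes in either direction (smallest adjusted p 0.054 and 0.0617; 1005 and 811 genes higher and 678 and 620 lower at an unadjusted p under 0.05). Without HSC_ND_37 it called 75 higher and 87 lower, and without HSC_ND_6 171 and 134. The words rose and fell below stand for a limma call with all 6 libraries.

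Genes of cell division made up the largest group of lower genes on any list. Of 35 proliferation genes tested, 28 were at least 2-fold lower in the non-tumour region at both temperatures (against 1.85% of all genes), 29 fell by limma and 0 rose. All 35 had lower values at both temperatures, and the median difference was -2.24 at 37 and -1.91 at 6 degrees, beside 0.02 and 0.04 for all genes. Cyclins and their kinase partner, spindle proteins, and enzymes of nucleotide supply were all among them.

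Ccnb2 (cyclin B2, which drives entry into mitosis with Cdk1; GRCm38 chr9:70407692-70421547) was at 26 and 44.7 FPKM in normal diet and at 2.2 and 6.67 FPKM in the non-tumour region. The difference was -2.83 ± 0.18 (limma, adjusted p = 0.00624). Both non-tumour values lay far under both normal diet values, and the tumour region libraries, at 3.71 and 11.2 FPKM, also lay below normal diet. Cdc20, the activator of the anaphase-promoting complex (chr4:118432901-118437352), was at 29.8 and 46.7 FPKM against 1.93 and 7.28 FPKM and fell by 2.96 ± 0.29 (adjusted p = 0.00972). Ube2c, the ubiquitin-conjugating enzyme that works with this complex, was at 27.9 and 45.1 against 2.15 and 5.98 FPKM and fell by 2.96 ± 0.22 (adjusted p = 0.00658). The sources did not overlap for any of these 3 genes.

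Sequences before the start of 4 of these genes are shown because cell cycle genes are known to share the CCAAT box, bound by NF-Y, and the TTTGAA core of the cell cycle homology region, bound by the MuvB complexes. The 250 bases before the RefSeq start are printed 5′ to 3′ on the gene's strand, with both motifs, on either strand, in capitals: Ccnb2 (GRCm38.p6 chr9:70421555-70421804, minus strand), Cdc20 (chr4:118437344-118437593, minus strand), Cdca3 (chr6:124829926-124830175, plus strand) and Plk1 (chr7:122159185-122159434, plus strand).
Ccnb2: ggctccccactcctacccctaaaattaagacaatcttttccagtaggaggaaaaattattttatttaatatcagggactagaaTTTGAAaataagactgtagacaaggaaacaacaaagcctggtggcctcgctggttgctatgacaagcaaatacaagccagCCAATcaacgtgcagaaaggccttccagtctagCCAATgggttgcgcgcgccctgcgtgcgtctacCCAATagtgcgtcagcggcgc
Cdc20: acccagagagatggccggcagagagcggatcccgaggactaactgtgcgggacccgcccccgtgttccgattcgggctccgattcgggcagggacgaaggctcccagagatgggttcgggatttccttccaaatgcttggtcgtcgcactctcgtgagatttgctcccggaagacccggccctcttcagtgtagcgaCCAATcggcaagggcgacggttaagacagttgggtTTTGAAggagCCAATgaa
Cdca3: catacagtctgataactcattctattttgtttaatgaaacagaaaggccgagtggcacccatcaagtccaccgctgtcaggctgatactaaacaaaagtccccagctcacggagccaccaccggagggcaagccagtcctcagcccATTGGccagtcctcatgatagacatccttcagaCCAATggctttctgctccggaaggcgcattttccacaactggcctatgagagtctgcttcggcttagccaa
Plk1: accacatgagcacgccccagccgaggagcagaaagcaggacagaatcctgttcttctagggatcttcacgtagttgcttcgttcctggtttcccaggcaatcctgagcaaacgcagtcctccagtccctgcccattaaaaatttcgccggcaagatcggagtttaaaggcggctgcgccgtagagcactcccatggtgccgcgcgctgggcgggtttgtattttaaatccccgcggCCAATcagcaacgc
A script found 3 CCAAT and 1 TTTGAA matches before Ccnb2, 2 and 1 before Cdc20, 2 and 0 before Cdca3 and 1 and 0 before Plk1. Of the 28 lower proliferation genes, 22 had a single promoter entry, and 18 of these (81.8%) held CCAAT and 8 (36.4%) TTTGAA, against 34.7% and 16.7% of 22862 mouse genes with a single entry. CCAAT at 2 or more places was found in 13 of the 22 (59.1%), against 10.7% of all. Over the 140 lower genes with a single entry CCAAT was present in 54.3% and TTTGAA in 25%; over 57 higher genes the shares were 28.1% and 12.3%. The matches of both motifs shared letters in 27 of the 22862 genes. These are counts of letters and no test was made.

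Kinases and regulators of mitosis followed the cyclins. Plk1, a kinase of mitotic entry and spindle formation, was at 12.4 and 15.1 FPKM in normal diet and at 0.855 and 1.95 FPKM in the non-tumour region, and fell by 2.65 ± 0.31 (limma, adjusted p = 0.0138). Cdk1 was at 19.9 and 23.6 against 1.95 and 4.9 FPKM and fell by 2.44 ± 0.24. The forkhead factor Foxm1, which activates genes of the G2 and M phases, stood at 6.25 and 9.16 against 0.538 and 1.01 FPKM (-2.29 ± 0.16, adjusted p = 0.00653). Aurka, Aurkb, Birc5, Bub1b and Tpx2, all parts of spindle assembly or its checkpoint, fell by 1.69 to 2.81. The cyclins Ccna2 (21.1 and 32.3 against 2.27 and 5.82 FPKM) and Ccnb1 (17.4 and 27.4 against 1.29 and 3.99 FPKM) fell by 2.52 ± 0.20 and 2.76 ± 0.18. The spindle genes Kif11, Kif20a and Nusap1 fell by 1.74, 2.58 and 2.30, the centromere genes Cenpa, Cenpe and Cenpf by 1.51, 1.38 and 1.25, and the chromatin protein gene Hmgb2 by 1.41. Mki67, the gene of the Ki-67 antigen, had low values throughout, at 3.94 and 4.9 against 0.242 and 0.837 FPKM (-1.84 ± 0.23, adjusted p = 0.0167).

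Some cell division genes outside the list were also lower, while others outside it were not, such as Ccnd1, a cyclin of the G1 phase, with log2 differences of 1.06 and 0.57. The lower genes with the largest differences at both temperatures included Cdca3, a trigger of mitotic entry, which was at 16.5 and 25.6 FPKM in normal diet against 0.501 and 2.24 FPKM in the non-tumour region and fell by 3.29 ± 0.21 (limma, adjusted p = 0.00624). Prc1, which crosslinks microtubules of the spindle midzone, was at 28.9 and 39.7 against 1.48 and 5.12 FPKM and fell by 3.16 ± 0.23. The mitotic kinase gene Pbk was at 15.8 and 23.9 against 1.15 and 3.12 FPKM and fell by 2.78 ± 0.15. In each of these 3 genes the higher non-tumour value was the one at 6 degrees.

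S phase genes differed less evenly. Rrm2, the inducible subunit of ribonucleotide reductase, was at 16.4 and 20.6 FPKM against 0.649 and 2.51 FPKM (-3.01 ± 0.24, limma, adjusted p = 0.00698), and the thymidine kinase gene Tk1 at 25.1 and 35.4 against 1.7 and 5.75 FPKM (-2.85 ± 0.22). The replication helicase gene Mcm5 fell by 1.65 ± 0.28, but Mcm2, Mcm3 and Mcm6 did not pass (adjusted p = 0.07, 0.175 and 0.0864), nor did the sliding clamp gene Pcna, with log2 differences of -0.87 and -0.53 (adjusted p = 0.0526). Ccne1, the cyclin of the G1 to S transition, was at 5.28 and 5 against 1.46 and 1.67 FPKM and fell by 1.26 ± 0.16. Ttk, a spindle checkpoint kinase past the 2-fold rule, was at 2.16 and 2.63 against 0.232 and 0.549 FPKM and just missed the threshold (adjusted p = 0.0501). Summed over the 37 list genes, normal diet libraries held 768 and 974 FPKM, non-tumour libraries 155 and 268 FPKM and tumour region libraries 245 and 397 FPKM. In bulk libraries such as these, fewer cells of a kind and less RNA per cell cannot be told apart.

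Genes of the matrix and of its remodelling lay on both sides. Among the lower genes with the largest differences was Spp1 (osteopontin, a secreted matricellular protein; chr5:104435118-104441050), at 37.2 and 59.5 FPKM in normal diet and at 4.84 and 3.79 FPKM in the non-tumour region. It fell by 3.18 ± 0.23 (limma, adjusted p = 0.00653) and the sources did not overlap. Cthrc1, a secreted protein of activated fibroblasts, was at 7.54 and 19 against 0.112 and 1.07 FPKM and fell by 3.11 ± 0.35 (adjusted p = 0.0129). The small leucine-rich proteoglycan gene Ogn was at 20.8 and 19.3 against 2.67 and 1.88 FPKM and fell by 2.69 ± 0.14 (adjusted p = 0.00608). Spp1 is also made by cholangiocytes and was on that list; the other cholangiocyte genes did not reach the expression filter in these libraries, and the list summed to 38.2 and 60.6 FPKM in normal diet, most of it Spp1.

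Some genes that degrade, crosslink or bind matrix also fell. Mmp2, the gelatinase of stellate cells (chr8:92827291-92853420), was at 114 and 99.6 FPKM in normal diet and 42.5 and 32.3 FPKM in the non-tumour region (-1.50 ± 0.10, limma, adjusted p = 0.00624). The stromelysin gene Mmp3 was at 3.19 and 4.13 against 0.536 and 0.349 FPKM (-1.69 ± 0.25). Loxl1, which crosslinks elastin, was at 32.7 and 26.4 against 12.4 and 8.5 FPKM (-1.43 ± 0.11). Elastin itself (Eln) was at 12.4 and 9.56 against 3.84 and 3.84 FPKM and missed the threshold (adjusted p = 0.0832). Adamtsl2, a microfibril-binding protein gene typical of stellate cells, was at 130 and 120 against 49.6 and 32.6 FPKM and fell by 1.61 ± 0.17 (adjusted p = 0.0105).

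Other matrix genes were higher. Fn1 (fibronectin, chr1:71585520-71653200) was at 78.8 and 61.2 FPKM in normal diet and at 271 and 221 FPKM in the non-tumour region, a rise of 1.80 ± 0.16 (limma, adjusted p = 0.00802). Timp3, the matrix-bound inhibitor of metalloproteinases, was at 110 and 109 against 396 and 313 FPKM and rose by 1.67 ± 0.15 (adjusted p = 0.00794). For both, the lowest non-tumour value was above 2 times the highest normal diet value. Col14a1, a collagen that coats fibrils, was at 390 and 350 against 955 and 708 FPKM (1.15 ± 0.13), tenascin C (Tnc) at 29.9 and 25.7 against 69.8 and 54.7 FPKM (1.13 ± 0.16), and thrombospondin 1 (Thbs1), which binds matrix and activates latent TGF-beta, at 40.7 and 10.4 against 94.3 and 69.2 FPKM (1.91 ± 0.34, adjusted p = 0.0425).

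Col1a1 and Acta2 did not pass. Col1a1, a chain of the main fibrillar collagen, was at 293 and 389 FPKM in normal diet against 216 and 165 FPKM in the non-tumour region (log2 difference -0.84, limma, adjusted p = 0.0908), and the smooth muscle actin gene Acta2, a marker of myofibroblasts, at 107 and 112 against 122 and 94 FPKM (adjusted p = 0.953). In the list of 43 collagens and matrix genes, 2 were at least 2-fold higher and 2 lower at both temperatures, 3 rose and 2 fell by limma (against 2.98% and 2.59% of all genes), and the median difference was 0.11. The 36 remodelling enzymes and inhibitors had 1 higher and 4 lower by the 2-fold rule and 4 rising against 4 falling. The 35 myofibroblast genes had 4 higher and 3 lower, with 8 rising and 3 falling and a median of 0.22; the rising ones included the contractile genes Tpm1 (226 and 220 against 558 and 431 FPKM) and Tagln (350 and 215 against 604 and 503 FPKM), which missed the 2-fold rule at 1 temperature each. Ly6a, a surface antigen gene on the portal fibroblast list, was at 56 and 62.1 against 160 and 278 FPKM and rose by 1.82 ± 0.17 (adjusted p = 0.00887). Of the 11 genes tested on that list, Ly6a was the 1 higher and Eln the 1 lower by the 2-fold rule. By limma 1 rose and 0 fell, and the median was 0.11.

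**Figure D2:**
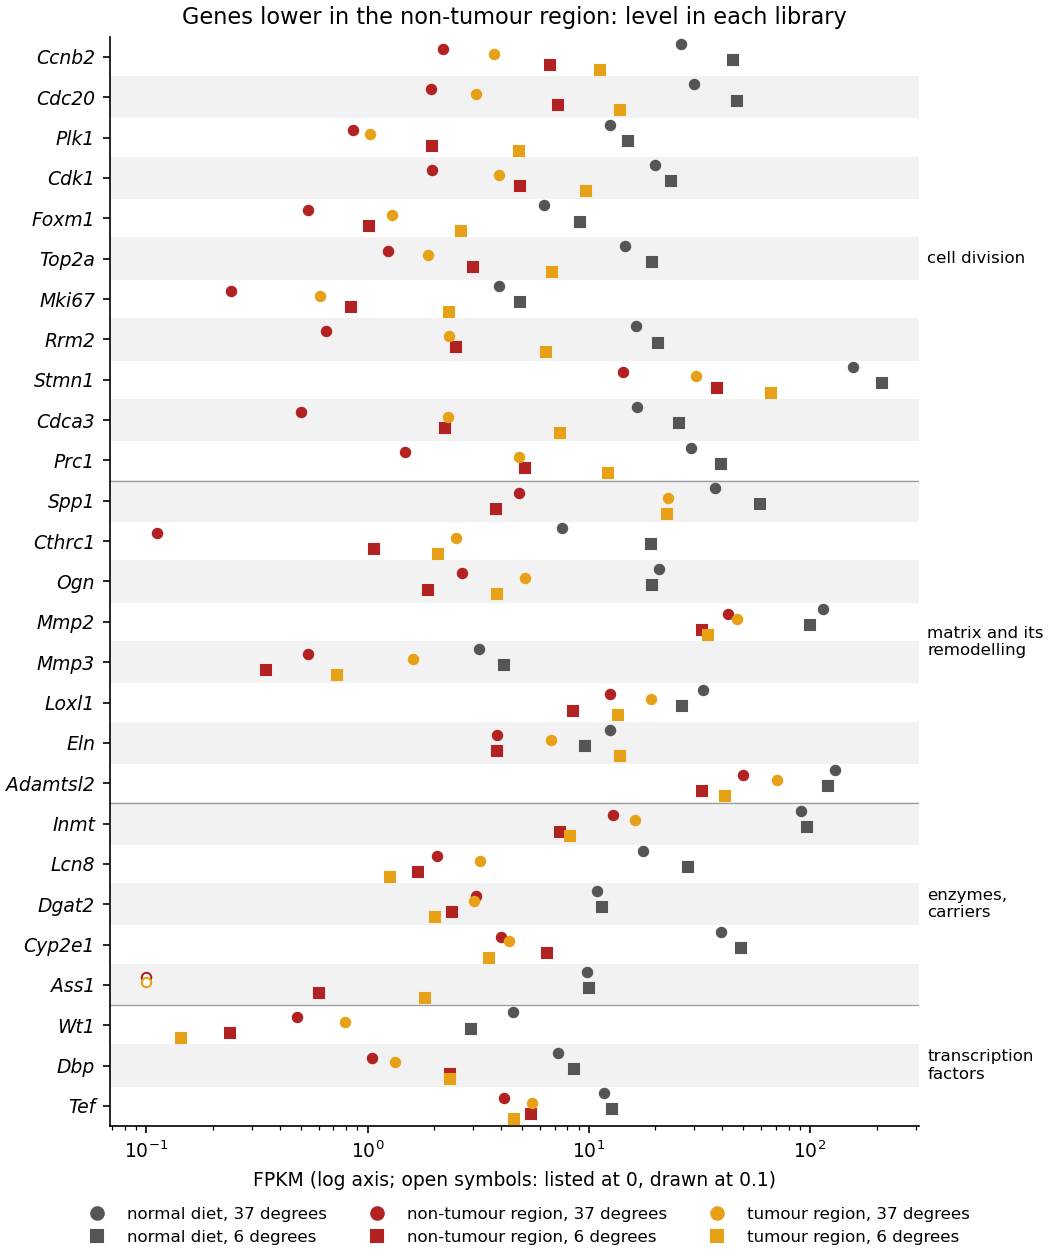
FPKM (log axis) of 27 genes lower in the non-tumour region in each of the 6 libraries, circles for 37 and squares for 6 degrees; each point is 1 library. Normal diet values (grey) lie to the right of the non-tumour values (red) in every row, and tumour region values (yellow) lie between them for Spp1, with Ass1 listed at 0 in both high-fat diet libraries of 37 degrees.

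Many, but not all, complement and acute phase genes were higher. On that list 15 genes had higher values at both temperatures and 4 had lower ones, which were C3, Cfp and the acute phase genes Saa3 and Lcn2. The acute phase genes Hp and Orm1 were higher at 37 and lower at 6 degrees. Of 24 tested, 6 were at least 2-fold higher at both temperatures (against 1.68% of all genes) and 0 lower, and 10 rose and 0 fell by limma, with a median difference of 0.50 at 37 and 0.71 at 6 degrees. The activating side of complement was represented by Cfb, the factor B protease of the alternative pathway (chr17:34856374-34862518), at 112 and 87.1 FPKM in normal diet against 337 and 261 FPKM in the non-tumour region. It rose by 1.58 ± 0.10 (adjusted p = 0.00624), with no overlap of the sources. Its neighbour C2, the protease of the classical pathway (chr17:34862604-34898265), was at 90.8 and 76.4 against 207 and 161 FPKM (1.12 ± 0.09), and C4b (chr17:34728380-34743882) at 76.9 and 54.1 against 184 and 142 FPKM (1.31 ± 0.09). C1s1 and C1ra, proteases that start the classical pathway, rose by less than 2-fold, from 187 and 156 to 348 and 258 FPKM and from 138 and 111 to 251 and 182 FPKM.

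An inhibitor of complement rose as well. Serping1, the C1 inhibitor (chr2:84765387-84775444), was among the more abundant of these transcripts, at 1408 and 1199 FPKM in normal diet and at 3426 and 2626 FPKM in the non-tumour region (1.21 ± 0.10, limma, adjusted p = 0.00698). C3, the central complement component, was at 6.78 and 9.76 against 3.37 and 2.3 FPKM and did not pass. C6, a subunit of the membrane attack complex that was on no list (chr15:4727175-4814967), was at 39.9 and 33.2 against 188 and 148 FPKM and rose by 2.17 ± 0.08 (adjusted p = 0.00352). The serine protease inhibitor gene Serpina3g stood at 50.9 and 74.3 against 253 and 330 FPKM (2.21 ± 0.23, adjusted p = 0.011), and Serpina3n at 1.32 and 2.33 against 10.6 and 8.8 FPKM (1.94 ± 0.22). The Serpina3 genes are close copies, and how reads were divided between them is uncertain. Fcna, a secreted ficolin of the lectin pathway, went the other way, from 3140 and 3217 to 1003 and 586 FPKM (-2.05 ± 0.21); it was singled out after its values were seen.

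Among the higher genes were 3 receptors of the interleukin 6 family, of which Osmr and Lifr were singled out after their values were seen, so that they say nothing of the family as a whole. Il6st (gp130, the shared signalling subunit; chr13:112464070-112510086) was at 220 and 207 FPKM in normal diet and at 524 and 548 FPKM in the non-tumour region and rose by 1.32 ± 0.09 (limma, adjusted p = 0.00653). Osmr, the oncostatin M receptor, was at 13 and 13 against 32.3 and 40.4 FPKM (1.41 ± 0.11), and Lifr, the leukaemia inhibitory factor receptor, at 71.9 and 69.1 against 171 and 160 FPKM (1.22 ± 0.08). For each of the 3 the highest normal diet value was less than the lowest non-tumour value, and the values at 37 and 6 degrees were close. The interleukin 6 receptor gene Il6ra was low, at 0.683 and 0.677 against 1.7 and 1.68 FPKM.

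Among chemokines and cytokines 3 of 37 genes were at least 2-fold higher at both temperatures (against 1.68% of all genes) and 0 lower, and 6 rose (against 2.98%) and 0 fell by limma. Ccl2, the attractant of monocytes (chr11:82035571-82037453), was at 196 and 98 FPKM in normal diet and at 472 and 411 FPKM in the non-tumour region, a rise of 1.66 ± 0.22 (adjusted p = 0.0181). Ccl19 (120 and 101 against 228 and 171 FPKM), Il34 (104 and 90.4 against 197 and 145 FPKM) and Cxcl5 rose but missed the 2-fold rule at 1 or both temperatures. Il1a was at 1.53 and 26.7 against 9.39 and 65.6 FPKM, a wide spread between temperatures, and did not pass (adjusted p = 0.274). Cxcl12, the most abundant chemokine of these cells, was at 3189 and 2963 against 2978 and 2014 FPKM and did not pass.

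Interferon-responsive and antigen presentation genes were higher by small amounts. Of 46 interferon response genes 42 had higher values at both temperatures, but 3 reached 2-fold at both (against 1.68% of all genes) and 6 rose by limma (against 2.98%), with a median of 0.42. The 3 were Oas2, which makes the second messenger of RNase L (7.24 and 4.02 against 26 and 16 FPKM, 1.74 ± 0.17, adjusted p = 0.0091), the nucleic acid sensor Zbp1 (21.7 and 13.7 against 45.4 and 45.5 FPKM, 1.35 ± 0.19) and the GTPase Gbp4 (13.8 and 14.9 against 29.9 and 33.1 FPKM, 1.08 ± 0.11). The regulator Irf7 rose from 76 and 66.3 to 136 and 138 FPKM. Of 20 antigen presentation genes 6 rose, all of class I or its loading complex. H2-T23 (chr17:36029773-36032855), a non-classical class I gene, stood at 338 and 347 against 728 and 722 FPKM (1.08 ± 0.09, adjusted p = 0.00777), and the classical genes H2-K1 and H2-D1 rose by less than 2-fold, from 2070 and 1829 to 3259 and 2715 FPKM and from 4815 and 4587 to 8272 and 7028 FPKM. The H2 genes are near copies of each other, so their split is uncertain. The class II genes H2-Aa and H2-Ab1, which macrophages express, were higher at 6 degrees (29.5 against 67.6 and 59 against 135 FPKM) and close at 37 degrees (4.51 against 6.09 and 9.31 against 10.3 FPKM).

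Growth factor genes were led by Igfbp3, which binds insulin-like growth factors in the extracellular space (chr11:7206086-7213923). It was at 354 and 318 FPKM in normal diet and at 1643 and 963 FPKM in the non-tumour region and rose by 1.90 ± 0.16 (limma, adjusted p = 0.00698). Of the 23 genes of platelet-derived, fibroblast, hepatocyte and insulin-like growth factor signalling it was the 1 that rose, and the receptor gene Fgfr1 the 1 that fell. In the list of 42 TGF-beta and BMP genes 4 were at least 2-fold higher (against 1.68% of all genes) and 0 lower. By limma 3 rose and 2 fell, near the 2.98% and 2.59% of all genes, and the median was 0.01. The ligand Tgfb2 stood at 4.12 and 2.78 against 17.2 and 9.59 FPKM (1.66 ± 0.21, adjusted p = 0.0166), while Tgfb1 was at 3.71 and 3.42 against 2.35 and 3.73 FPKM. The BMP-binding protein gene Bmper was at 5.77 and 2.61 against 17.7 and 12.8 FPKM (1.70 ± 0.20), and Bambi, a decoy receptor of the family, fell from 83.4 and 51.9 to 31.9 and 31.3 FPKM without reaching 2-fold at 6 degrees.

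Genes of stellate cell quiescence and retinoid handling had medians near 0, while more stellate cell markers rose than fell. Of 26 quiescence and retinoid genes 0 passed the 2-fold rule in either direction, 2 rose and 2 fell by limma, and the median was 0.10 at 37 and -0.06 at 6 degrees. Among 30 stellate cell markers 1 passed the 2-fold rule upward and 1 downward, 7 rose and 2 fell. Of all genes 2.98% rose and 2.59% fell. The upward one was Sod3, the extracellular superoxide dismutase (chr5:52363791-52371418), at 1890 and 1610 FPKM in normal diet and at 6771 and 4998 FPKM in the non-tumour region (1.74 ± 0.11, limma, adjusted p = 0.00624). The collectin gene Colec11 rose from 2313 and 2252 to 5563 and 4096 FPKM and the pericyte gene Rgs5 from 143 and 122 to 352 and 235 FPKM, both short of 2-fold at 6 degrees. Desmin (Des) did not pass, at 135 and 111 against 121 and 93.8 FPKM (limma, adjusted p = 0.257). Summed over the 30 markers, the non-tumour libraries held 54330 and 38694 FPKM and the normal diet libraries 35940 and 31513 FPKM.

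The higher genes with the largest differences at both temperatures were mostly on no list. Clca3a1, of the calcium-activated chloride channel regulator family (chr3:144729677-144760977), was at 53.1 and 45.2 FPKM in normal diet and at 322 and 275 FPKM in the non-tumour region. Its rise of 2.58 ± 0.08 was the same at both temperatures and had the lowest adjusted p of the genes named here (limma, 0.00248). Adam23, a cell adhesion protein of the ADAM family without protease activity, was at 8.91 and 18.9 against 60.9 and 103 FPKM (2.51 ± 0.14), Olfm2, a secreted olfactomedin, at 2.16 and 1.73 against 24.9 and 13.3 FPKM (2.71 ± 0.18) and Shisa2, which retains Wnt and FGF receptors in the endoplasmic reticulum, at 8.22 and 6.87 against 60.5 and 35.2 FPKM (2.47 ± 0.22). Tmem178 (2.15 ± 0.14), Adamtsl3 (2.11 ± 0.14) and Parm1 (2.03 ± 0.12) rose by similar amounts. Zbtb8b, a zinc finger gene near 1 FPKM in normal diet, was at 25.4 and 11.5 FPKM in the non-tumour region (3.16 ± 0.26), and the transcript 8430408G22Rik, which had no match in the annotation used here, went from 0.338 and 1.08 to 20.9 and 95.1 FPKM (4.78 ± 0.35). With 42.2 and 92.2 FPKM in the tumour region, 8430408G22Rik was over 2-fold lower at 37 degrees in both high-fat regions. The endothelial markers also had lower values at 37 degrees, and the part of endothelial RNA in its difference was not tested. The imprinted gene Mest (42.9 and 38.2 against 159 and 159 FPKM) and the G protein regulator Rgs4 (70.2 and 52.7 against 400 and 211 FPKM) stood just below the genes with the largest differences and were chosen after their values were seen.

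**Figure D3:**
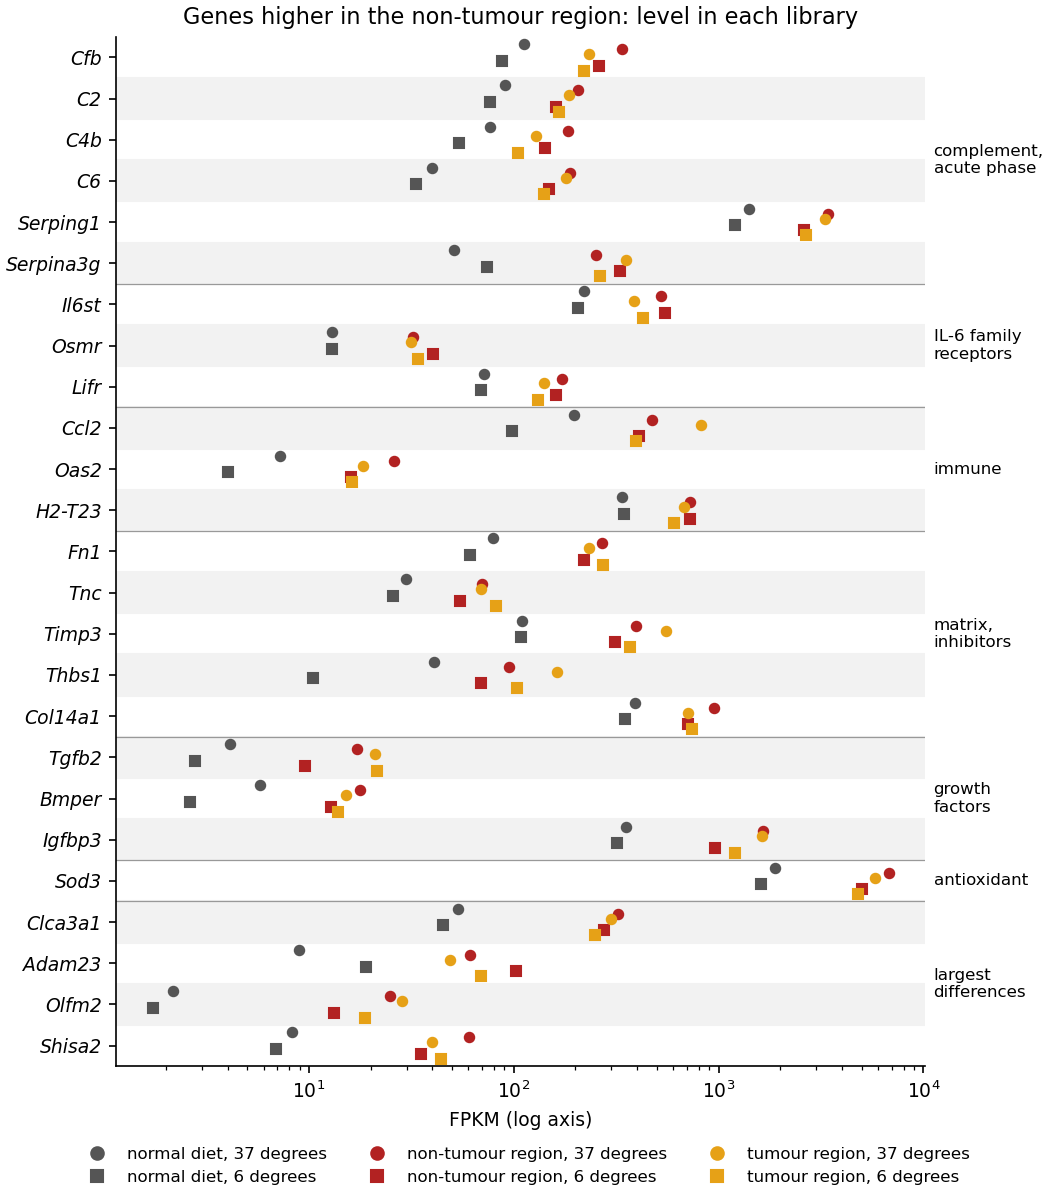
FPKM (log axis) of 25 genes higher in the non-tumour region in each of the 6 libraries, circles for 37 and squares for 6 degrees; each point is 1 library. The normal diet values (grey) lie to the left of both the non-tumour (red) and the tumour region values (yellow) in every row.

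Lipid mediators and metabolism gave members in both directions. Pla2g4a, the phospholipase that releases arachidonic acid, was at 3.2 and 4.08 FPKM in normal diet and at 17.3 and 14.7 FPKM in the non-tumour region (1.88 ± 0.17, limma, adjusted p = 0.00801). The prostaglandin E2 receptor gene Ptger3 was at 2.76 and 2.67 against 17.6 and 10.5 FPKM (1.98 ± 0.18). Ptgis, prostacyclin synthase, fell from 47.8 and 31.3 to 19.1 and 14.4 FPKM (-1.17 ± 0.11). Dgat2, which makes triglycerides, was at 10.9 and 11.5 against 3.08 and 2.4 FPKM and fell by 1.71 ± 0.17 (adjusted p = 0.00974), and of 25 fatty acid and triglyceride synthesis genes it was the 1 that passed the 2-fold rule. Cholesterol synthesis and uptake genes had 0 of 23 past the 2-fold rule and 0 past limma in either direction, with a median of -0.10. The 35 oxidative phosphorylation genes also had 0 of each, with a median of -0.04.

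Small groups of other lower genes had named roles. Of 16 clock genes Dbp and Tef, both PAR bZIP output factors of the clock, passed the 2-fold rule and fell by limma. Of all genes 1.85% were lower by the 2-fold rule and 2.59% fell by limma. Dbp was at 7.27 and 8.53 FPKM against 1.05 and 2.36 FPKM (-1.76 ± 0.18, adjusted p = 0.0104) and Tef at 11.7 and 12.7 against 4.13 and 5.5 FPKM (-1.19 ± 0.17). The labels give no time of day for the collection. Inmt, an N-methyltransferase, stood at 91 and 96.6 against 12.8 and 7.41 FPKM (-3.14 ± 0.24, adjusted p = 0.0069), and the lipocalin gene Lcn8 at 17.6 and 28.2 against 2.06 and 1.69 FPKM (-3.02 ± 0.36). Tcf7, a Wnt effector, fell from 12.7 and 12.3 to 4.99 and 3.17 FPKM and the stress protein gene Nupr1 from 144 and 133 to 68.2 and 53.7 FPKM. Psat1, an enzyme of serine synthesis, fell from 5.09 and 6 to 1.63 and 1.48 FPKM. On the endoplasmic reticulum and stress response list, 6 of 26 genes tested rose and 2 fell by limma (against 2.98% and 2.59% of all genes). The 6 were chaperone and folding genes that did not reach 2-fold at both temperatures, among them Hspa5 (428 and 433 against 951 and 829 FPKM). Wt1, a mesothelial and mesenchymal transcription factor gene, was at 4.54 and 2.94 against 0.48 and 0.24 FPKM (-1.79 ± 0.19), while the 9 mesothelial symbols, Wt1 included, summed to 4.89 and 10.7 FPKM in normal diet and 3.21 and 23.3 FPKM in the non-tumour region.

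Adhesion and guidance genes had members in both directions. Of 36 tested, 3 were at least 2-fold higher and 1 lower at both temperatures, 8 rose and 1 fell by limma (against 2.98% and 2.59% of all genes), and the median was 0.41. Epha3, an ephrin receptor, was at 10.5 and 7.64 FPKM in normal diet and at 31.7 and 19.4 FPKM in the non-tumour region (1.37 ± 0.15, adjusted p = 0.0127). Integrin beta 3 (Itgb3) rose from 33.4 and 24.5 to 66.4 and 48.3 FPKM and N-cadherin (Cdh2) from 109 and 92 to 199 and 136 FPKM, while integrin alpha 8 (Itga8) fell from 58.3 and 62.6 to 29.8 and 35.8 FPKM. Ncam1, a neural adhesion molecule, was at 3.28 and 3.25 against 0.854 and 0.751 FPKM and missed the threshold (adjusted p = 0.0532).

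Among 30 hypoxia and glycolysis genes 1 passed the 2-fold rule upward, near the 1.68% of all genes, and 6 rose (against 2.98%) and 0 fell by limma, with a median of 0.34. The member was Ankrd37, a target of hypoxia-inducible factors, at 1.08 and 1.06 FPKM against 3.47 and 3.41 FPKM (limma, adjusted p = 0.0451). The glucose transporter gene Slc2a1 rose from 15.7 and 10.8 to 26.7 and 21.8 FPKM and adrenomedullin (Adm) from 114 and 71.7 to 201 and 153 FPKM. Of 28 antioxidant enzyme genes 22 had lower values at both temperatures, but Sod3 rose. Gpx3, the secreted glutathione peroxidase, was at least 2-fold lower at both temperatures, at 159 and 156 against 77.8 and 65 FPKM, and just missed limma's threshold (adjusted p = 0.0512), while the 2 that fell, Nqo1 (9.69 and 10.5 against 3.69 and 5.93 FPKM) and Gsta4 (81.2 and 77.7 against 44.4 and 29.7 FPKM), missed the 2-fold rule. Among 32 genes of Wnt, Hedgehog, Notch and Hippo signalling 5 fell and 1 rose by limma (against 2.59% and 2.98% of all genes). By the 2-fold rule 1 was lower and 1 higher (against 1.85% and 1.68%). Hes1, a Notch target, fell from 266 and 114 to 105 and 60.7 FPKM and Hhip, an inhibitor of Hedgehog ligands, from 29.9 and 29.1 to 16.9 and 8.85 FPKM, while Heyl, another Notch target, rose from 44.2 and 32.4 to 72 and 57.8 FPKM.

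Hepatocyte transcripts had lower values chiefly at 6 degrees. Of 21 tested, 3 passed the 2-fold rule downward (against 1.85% of all genes). Cyp2e1, Ass1 and the transferrin gene Trf (266 and 293 against 164 and 130 FPKM) fell by limma (against 2.59% of all genes). Cyp2e1 was at 39.4 and 48.7 FPKM in normal diet and at 4.02 and 6.45 FPKM in the non-tumour region (-2.87 ± 0.21, limma, adjusted p = 0.00653), Ass1, the urea cycle enzyme, at 9.76 and 9.99 FPKM against 0.601 FPKM at 6 degrees and a listed 0 at 37 degrees, and Cyp3a11 at 2.38 and 23.5 against 0.318 and 1.63 FPKM (adjusted p = 0.0951). At 37 degrees the list's median difference was -0.01 and Alb, the albumin gene, was at 5.39 against 6.01 FPKM, while at 6 degrees the median was -1.39 and Alb was at 29.3 against 13.7 FPKM. The list summed to 379 and 872 FPKM in normal diet and 232 and 310 FPKM in the non-tumour region. Cyp2e1 and Ass1 differed at both temperatures, and Alb was close between the sources at 37 degrees only. The part of hepatocyte RNA in these differences was not tested.

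**Figure D4:**
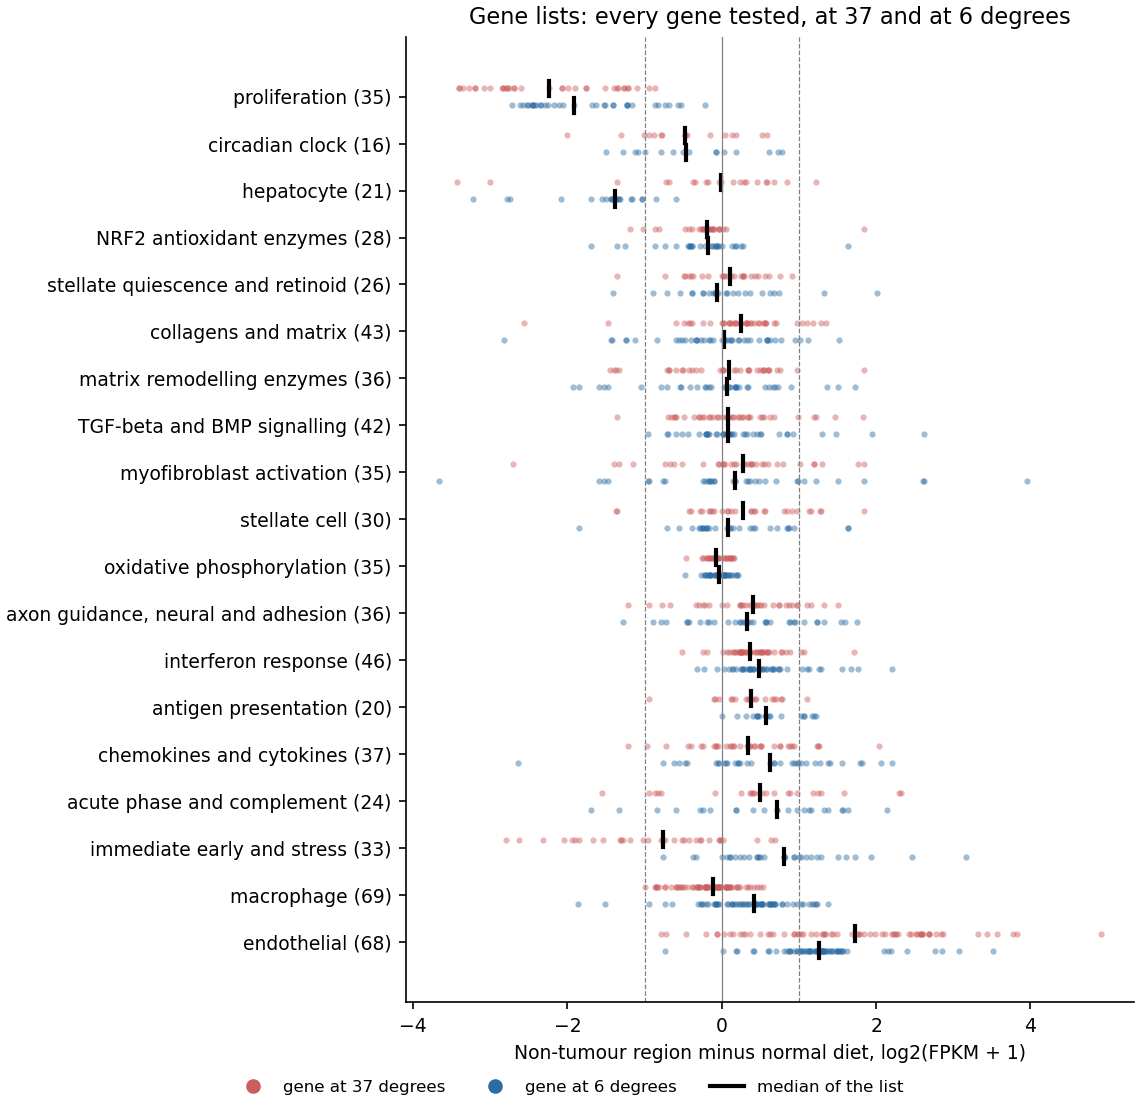
Difference between the non-tumour region and normal diet on the log2(FPKM + 1) scale for every tested gene of 19 lists (numbers of genes in brackets), at 37 degrees (red) and at 6 degrees (blue), with the list's median as a black bar. The proliferation genes lie to the left of 0 and most endothelial genes to the right at both temperatures, whereas the immediate early list has medians of -0.76 at 37 and 0.80 at 6 degrees.

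Endothelial markers moved with the comparison. Of 68 tested, 41 were at least 2-fold higher in the non-tumour region at both temperatures (against 1.68% of all genes). By limma 18 rose and 0 fell (against 2.98% and 2.59%), and the median was 1.73 at 37 and 1.26 at 6 degrees. The 75 symbols summed to 5160 and 7693 FPKM in normal diet and 8631 and 14247 FPKM in the non-tumour region. Plvap, which was high in all libraries, accounted for 3229 and 2851 FPKM and 5634 and 4338 FPKM of these sums. Between 0 and 1 of the 75 symbols were at 0 in a library, and the defining markers Kdr (2.2 and 80.2 against 19.5 and 187 FPKM) and Stab2 (1.3 and 46.1 against 13.9 and 112 FPKM) were far lower at 37 degrees. Of 69 macrophage markers 0 passed the 2-fold rule, beside 1.68% of all genes higher and 1.85% lower. By limma 0 rose and 1 fell (against 2.98% and 2.59%). The 1 was the iron exporter gene Slc40a1 (210 and 289 against 105 and 149 FPKM, limma, adjusted p = 0.0228). The 75 symbols summed to 1230 and 2335 against 1276 and 2968 FPKM.

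The 45 genes set apart for being at least 2-fold lower at 37 degrees in all 3 sources are given apart because the endothelial markers also had lower values at 37 degrees, with median differences between the temperatures of -2.90 in normal diet and -2.75 in the non-tumour region. The largest were Esm1, a proteoglycan of endothelial tip cells (0.172 and 4.34 against 5.74 and 31.4 FPKM), the potassium channel subunit Kcne3 (0 and 2.06 against 3.6 and 16.5 FPKM), the fatty acid binding protein Fabp5 (3.4 and 27 against 18.6 and 127 FPKM), the uridine phosphorylase Upp1 and the lysine-degrading enzyme Aass. The part of endothelial RNA in their difference was not tested. By this choice the 108 higher genes described above hold none that was at least 2-fold lower at 37 degrees in all 3 sources on the log2(FPKM + 1) scale. In plain FPKM some of them were, such as 8430408G22Rik and S100a9, whose normal diet values were low. On the log2(FPKM + 1) scale 83 of the 108 differed by less than 2-fold between temperatures in each source. A further 18 were at least 2-fold lower at 37 degrees in 1 or 2 sources. These included 8430408G22Rik, which passed limma, and Il1a, Id4 (1.22 and 10.7 against 4.19 and 27.8 FPKM), Fas and Cdh13, which did not. The other 7 were at least 2-fold higher at 37 degrees in 1 or more. Edn1, the endothelin gene, at 0.284 and 0.289 against 1.87 and 7.36 FPKM, and S100a9, a neutrophil marker at 0 and 0.754 against 1.04 and 2.98 FPKM, did not pass either (adjusted p = 0.0515 and 0.115). The same held for Errfi1, a feedback inhibitor of EGF receptor signalling, at 89.2 and 69.4 against 214 and 191 FPKM (adjusted p = 0.0728), and for AI607873, at 0.242 and 3.24 against 4 and 16.6 FPKM (adjusted p = 0.0965).

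**Figure D5:**
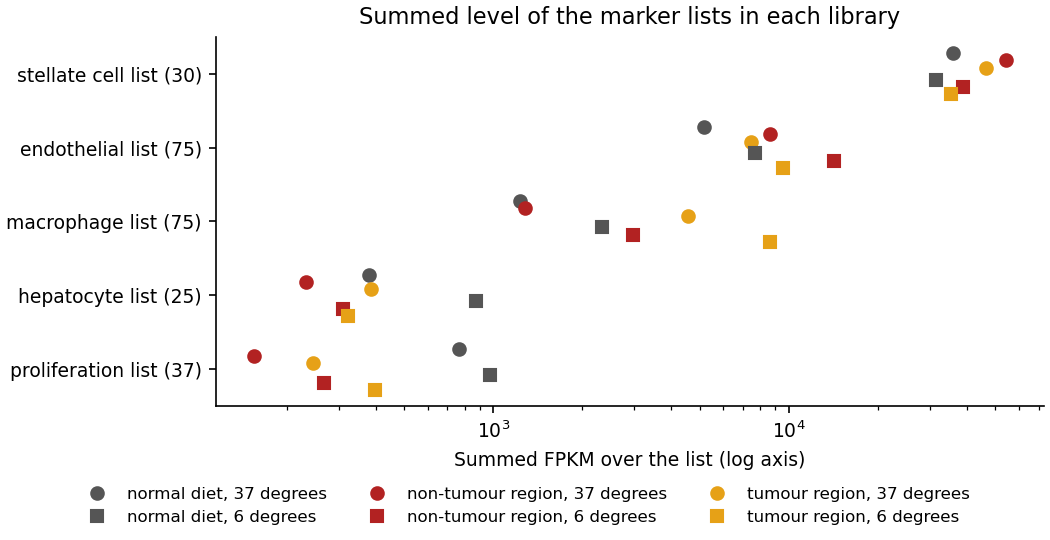
Summed FPKM (log axis) of 5 lists in each of the 6 libraries (numbers of symbols in brackets), circles for 37 and squares for 6 degrees. The non-tumour libraries (red) hold more endothelial and less proliferation transcript than the normal diet libraries (grey) at both temperatures, and the macrophage list is near equal between these sources at 37 degrees.

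The tumour region libraries were not used to choose the genes, but their comparison with the non-tumour region shares the non-tumour libraries with that choice. By limma 52 genes (0.45%) were higher and 0 (0.0%) lower in the tumour region (736 and 434 at an unadjusted p under 0.05). Macrophage markers, such as Mpeg1 and Ptprc, were among the 52. The macrophage list summed to 4566 and 8644 FPKM in the tumour region against 1276 and 2968 FPKM in the non-tumour region. The part of macrophage RNA in the differences between these regions was not tested. Among the 322 described genes 2 were higher in the tumour region and 0 lower. Spp1, at 22.8 and 22.5 FPKM in the tumour region against 4.84 and 3.79 FPKM in the non-tumour region, was higher by 2.16 ± 0.23 (adjusted p = 0.0429). Srpx, a sushi repeat protein of the matrix, was at 4.9 and 4.02 against 0.877 and 0.452 FPKM, higher by 1.72 ± 0.15 (adjusted p = 0.0383), and at 4.87 and 3.56 FPKM in normal diet. Both were lost without any 1 of the normal diet or non-tumour libraries or HSC_T_37, and 9 of the described genes passed without HSC_T_6. At an unadjusted p under 0.05, 82 of the 214 lower genes were higher and 3 lower in the tumour region, and of the 108 higher genes 10 were higher and 8 lower. The choice of genes with low non-tumour values itself favours higher values elsewhere, so these counts are a description.

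Side by side, the members had these levels in the tumour region. Cfb was at 234 and 219 FPKM, C6 at 180 and 140 FPKM, Fn1 at 232 and 273 FPKM and Sod3 at 5821 and 4813 FPKM, each well above its normal diet values. Proliferation genes stood between the other sources at each temperature in the case of Cdc20 (3.1 and 13.8 FPKM), Top2a (1.87 and 6.82 FPKM) and Stmn1 (30.6 and 66.7 FPKM). Mmp2 was at 46.9 and 34.5 FPKM and Cyp2e1 at 4.34 and 3.53 FPKM, close to the non-tumour values. Eln was at 6.71 and 13.9 FPKM, above the non-tumour values at both temperatures and above normal diet at 6 degrees.

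The 2-fold limit cut through a continuous range. The genes nearest to it on the inside were Fas (1.003 and 1.019), Lmnb1 (-1.933 and -1.004) and Dnajc9 (-1.007 and -1.051), and on the outside Lingo1 (0.999 and 1.103), Cd44 (1.319 and 0.995) and Cpxm1 (1.213 and 0.989), all as log2 differences at 37 and 6 degrees. A smaller difference between 1 and 1.1 was found in 61 genes, and one between 0.9 and 1 in 64 genes that were left out.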

How the data were processed

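The deposited values were FPKM per gene symbol, 24346 symbols in each of 6 libraries. Per the submitters' processing notes the authors used TopHat2 2.1.1, Bowtie2, Cuffdiff 2.2.1 and mm10; settings, annotation, strand and scaling were not stated there. FPKM carry no counts, and fragments per library were inferred from the smallest steps between the values of 4107 genes with 1 transcript. Near-identical genes are uncertain.

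Genes averaging 1 FPKM or more across the 6 libraries entered the tests, small RNA genes excepted. The limma package (3.58.1, R 4.3.3) was applied to log2(FPKM + 1), with source and temperature as terms and an intensity trend, and p-values were adjusted by Benjamini-Hochberg over 11556 genes. Nothing in the labels says that libraries came from separate animals. With 1 library per source and temperature, the residuals show how far the source differences disagree between 37 and 6 degrees. The p-values rest on that disagreement, moderated over all genes, and not on a spread between replicate libraries or animals. The procedure was run on data simulated from the fitted model with independent noise. Such data meet the model's assumptions by design and cannot show whether these libraries do. The members and the 41 gene lists were chosen with earlier results of these data known. Named were the 12 genes per direction with the largest smaller difference, the members on a list, the 15 limma calls with the largest fold, and 5 of those lower at 37 degrees; from the lists described, other genes that did or did not pass are given as examples chosen after their values were seen. Coordinates are GENCODE M21 (GRCm38) for 23310 matched symbols, and promoters RefSeq (GRCm38.p6). Alternatives were other pseudocounts, filters, scalings, fold limits, model terms and left-out libraries.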

Additional observations from a re-analysis of the deposited data

Results flagged for a closer look

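In 14 genes the non-tumour region differed from normal diet by at least 2-fold in opposite directions at 37 and 6 degrees. With 1 library per group these differences between temperatures were not tested. Given as the log2 difference at 37 minus that at 6 degrees, immediate early genes stood at -4.73 (Nr4a1), -3.75 (Egr1), -3.34 (Atf3), -3.08 (Fos), -2.95 (Btg2), -2.26 (Arc) and -2.18 (Sik1). Fos was at 1548 and 99.7 FPKM in normal diet and 429 and 236 FPKM in the non-tumour region at 37 and 6 degrees, and Nr4a1 at 164 and 6.33 against 22.7 and 26.9 FPKM. Over the immediate early and stress list the median difference at 37 degrees was lower than that at 6 degrees by a value of -1.56.

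The other genes had values of -11.39 (Rps27), -5.97 (Apoo-ps), -2.53 (Khdrbs3), 2.04 (Hist4h4), 2.25 (Ambp), 2.81 (Cox7a1) and 7.28 (Amd2). Rps27 was at 295 and 3.67 FPKM in normal diet and 5.89 and 290 FPKM in the non-tumour region, and Amd2 at 0.167 and 11.4 against 14.4 and 0.0543 FPKM. Both have near copies in the genome, and how reads were divided between the copies is uncertain. Hist4h4 and Cox7a1 were at or below 3.63 FPKM in every library and listed at 0 in the non-tumour library of 6 degrees.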

How the results depend on the processing

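The counts of limma calls in the non-tumour region (344 higher, 299 lower) depended on the processing. They were 0 and 0 with no filter on low values, 4 and 0 with the temperature term left out (811 lower at an unadjusted p under 0.05), 517 higher with the 4 libraries of both sources alone, and 166 lower with a mean of at least 5 FPKM. Leaving out 1 library gave 0 to 508 higher and 0 to 392 lower, with 0 on both sides without either non-tumour library. The 2-fold rule (194 higher, 214 lower) gave 312 higher with a pseudocount of 0.1 FPKM, 491 and 413 at 1.5-fold, 48 and 90 at 3-fold, and 98 lower with at least 5 FPKM. The described genes (108 and 214) became 164 higher with the smaller pseudocount, 345 and 411 at 1.5-fold, 32 and 90 at 3-fold and 98 lower with at least 5 FPKM. The 2 members higher in the tumour region became 0 with a pseudocount of 0.1 FPKM, with no filter, with at least 5 FPKM, with small RNA genes kept and without the temperature term, 1 with quantile normalization and 1 without the intensity trend, and 0 to 9 when 1 library was left out. Of 102 named genes 89 passed limma and 0 reversed under any alternative; 82 passed under all alternatives with all 6 libraries, the filter of 1 FPKM and the temperature term, and with the 4 libraries alone. Causes were not tested, apart from the fewer genes tested at 5 FPKM and the fewer libraries. The reported fit is paired by temperature; the labels carry no replicate numbers that would allow another pairing. Estimated depth limits values near 0.05 FPKM and below.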
